A study of Mus musculus with 25 samples.

Results

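The genes described here encode the α, β and γ subunits of heterotrimeric G proteins and the regulators of G protein signaling (RGS proteins). They were chosen by symbol: names that begin with Gna, Gnb, Gng or Rgs in the form of these families were taken, and 2 further genes with such symbols were left out. Earlier results of these data were known when the choice was made. The rule gave 54 of the 24439 genes in the RNA-seq tables, namely 15 Gα, 5 Gβ, 12 Gγ and 22 RGS genes, the last including the proteins that anchor R7-type RGS proteins to the membrane. Class and family sums, shares and rankings below cover these genes only. The same names marked 272 of the 65053 consensus ATAC-seq peaks, each assigned by the authors to the gene with the nearest transcription start site, and 49 of the 54 genes had at least 1 such peak.

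Expression (RNA-seq, 3 libraries per line) and open chromatin (ATAC-seq, 5 libraries per line) were measured in 2 mouse islet tumor cell lines, alpha TC1 clone 6 (αTC1) and beta-TC-6 (βTC6), and open chromatin also in 9 mixtures holding 10 to 90% αTC1 cells, 1 library each. Both lines came from the pancreas of transgenic mice in which a viral oncogene was driven by a hormone gene promoter, and each is a single established line. The lines were grown in different formulations of culture medium with different serum content, so line and medium cannot be told apart. The labels give no treatment, and whether replicates were separate cultures is not given in the sources used here, so p-values measure the spread between these libraries, which may be technical. RNA libraries held 21954031 to 26033482 expected counts and ATAC libraries 4397851 to 10374903 reads in peaks. The labels were checked against marker genes: αTC1 libraries held Gcg at 12113 to 14406 FPKM with Ins1 and Pdx1 at 0, and βTC6 libraries held Ins2 at 23541 to 35748 FPKM. The βTC6 libraries also held Gcg at 172 to 267 FPKM, the delta-cell hormone gene Sst at 207 to 325 FPKM and Ppy at 3.70 to 50.8 FPKM. The other delta-cell marker, Hhex, was at 0 to 0.02 FPKM in βTC6 and 0.06 to 0.13 FPKM in αTC1. The beta-cell marker Nkx6-1 was at 13.3 to 14.1 FPKM in αTC1, beside 56.6 to 66.7 FPKM in βTC6. The alpha-cell marker Irx2 was at 11.5 to 13.9 FPKM in βTC6, beside 162 to 183 FPKM in αTC1. Of 18 markers of other cell types, 15 stayed under 5 FPKM in all 6 libraries, the exceptions being Sst, Ppy and the photoreceptor gene Sag (16.2 to 20.3 FPKM in αTC1). The part that other hormone-expressing cells had in the results below was not tested.

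A heterotrimeric G protein carries the signal of a seven-transmembrane receptor: the receptor loads the α subunit with GTP, and α and the βγ pair then act on separate effectors. The Gs family raises cAMP, the Gi/o family lowers it and releases βγ pairs that open potassium channels and restrain secretion, the Gq family activates phospholipase C, and the G12 family acts on the cytoskeleton. RGS proteins speed the hydrolysis of GTP by α subunits, mostly those of the Gi/o and Gq families, and so shorten the signal. In islets these pathways carry the effects of incretin hormones, adrenaline, acetylcholine and somatostatin on insulin and glucagon release.

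Of the 54 genes, 34 reached 1 FPKM (fragments scaled for transcript length and library depth) in every replicate of at least 1 line and were tested. A gene was called when its Benjamini-Hochberg false discovery rate (FDR) in edgeR was under 5% and its log2 fold change, βTC6 over αTC1, exceeded 2 in size. Called higher in βTC6 were 6 members, 17.6% of those tested, beside 10.2% of all 12195 genes tested. They were Gng12, Rgs7bp, Rgs11, Gnai1, Rgs19 and Rgs10. Called higher in αTC1 were 5 members, 14.7% of those tested, beside 4.08% of all genes, and these were Rgs5, Gng3, Rgs16, Rgs4 and Gng2. At FDR alone, 17 members were higher in βTC6 (50.0%, beside 38.7% of all genes) and 10 higher in αTC1 (29.4%, beside 36.0%), and 7 did not pass. Scaled to the ERCC spike-ins, synthetic RNAs added to each sample, the counts of calls were again 6 and 5, but at FDR alone 8 and 5 passed, beside 17.5% and 11.8% of all genes. The 14 members that lost FDR in that fit were Gnai2, Gnai3, Gnaz, Gnaq, Gna11, Gna12, Gnb2, Gnb4, Gnb5, Gng10, Rgs2, Rgs7, Rgs12 and Rgs17. No member's log2 fold change moved by more than 0.124, while the median standard error went from 0.138 to 0.434. In bulk RNA, fewer cells that express a gene and less RNA per cell cannot be told apart. In size, the log2 fold change had a median of 0.66 among the tested members and of 0.61 among all genes. By class this median was 0.48 for the Gα genes, 0.49 for the Gβ genes, 1.17 for the Gγ genes and 2.84 for the RGS genes. These are counts over members chosen by name, and no test of the list was made.

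**Figure D1:**
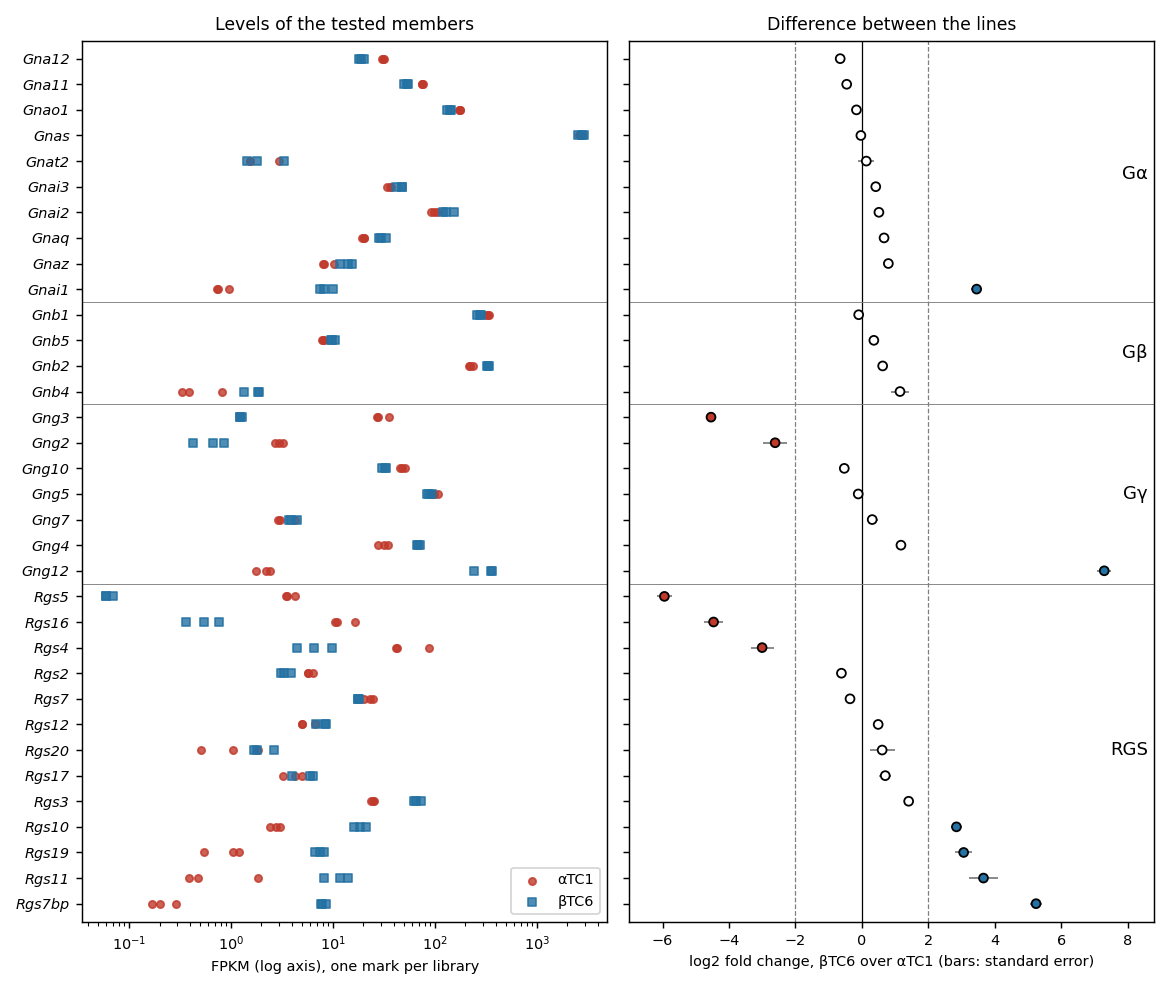
Left, FPKM of the 34 tested genes on a log axis, 1 mark per RNA-seq library (circles αTC1, squares βTC6). Right, log2 fold change of βTC6 over αTC1 with edgeR's standard error, filled where called and with dashed lines at 2 and -2. Among the Gα and Gβ genes only Gnai1 lies beyond the dashed lines and Gnb4 is at 1.14, while Gγ and RGS genes reach from -5.95 (Rgs5) to 7.29 (Gng12).

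Among the Gα genes, Gnas made up most of the class in both lines. Gnas encodes the stimulatory subunit Gαs and, from the same locus, further imprinted transcripts. It measured 2609, 2646 and 2809 FPKM in the αTC1 replicates and 2885, 2810 and 2550 FPKM in the βTC6 replicates. The ranges overlapped, and the log2 fold change was -0.03 ± 0.12 (SE, n = 3 per line, adjusted p = 0.815, edgeR), a sign that turned when replicate 3 of either line was left out. Its exons overlap the antisense gene Nespas, and counting was not stated to use strand, so reads of the pair could not be told apart. On summed FPKM, Gnas held 85.7% ± 0.242 (SD, n = 3) of the Gα class in αTC1 and 85.9% ± 1.17 in βTC6. The other Gs gene, Gnal, known from the olfactory epithelium and striatum, stayed at 0.68 to 0.74 FPKM in αTC1 and 0.34 to 0.43 FPKM in βTC6, under the filter.

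The inhibitory Gi/o genes summed to 323 ± 11.7 FPKM in αTC1 and 347 ± 19.8 FPKM in βTC6 (SD, n = 3), and the order of their members was led by Gnao1 and Gnai2. In αTC1, Gnao1 (174 to 179 FPKM) stood above Gnai2 (92.3 to 105 FPKM), whereas in βTC6 the 2 ranges overlapped, at 133 to 146 and 121 to 155 FPKM. Gnao1, the subunit Gαo of neurons and endocrine cells, had a log2 fold change of -0.17 ± 0.07 and did not pass (adjusted p = 0.0649, edgeR), though it did with DESeq2 (adjusted p = 0.0251) and with limma on log2(FPKM + 1), at -0.33 (adjusted p = 0.00228). Gnai2 was higher in βTC6 by 0.51 ± 0.10 on the log2 scale and Gnai3 by 0.42 ± 0.08 (adjusted p = 0.00155 and 0.00163), both well under the 4-fold required for a call. The fit works on counts scaled by trimmed means, so a log2 fold change can differ somewhat from the ratio of FPKM values.

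Among the Gα genes past the filter, Gnai1 differed most. It encodes Gαi1, an adenylyl cyclase inhibitor closely related to Gαi2 and Gαi3, and lies on chr5:17770953-17866231 of mm9, the genome build of the files, on the minus strand. It measured 0.75, 0.74 and 0.95 FPKM in αTC1 and 10.1, 7.58 and 8.14 FPKM in βTC6. Every βTC6 replicate lay above every αTC1 replicate, with a log2 fold change of 3.45 ± 0.17 (adjusted p = 2.13e-07, edgeR). On summed FPKM Gnai1 held 0.269% ± 0.034 of the Gα class in βTC6, beside 0.026% ± 0.003 in αTC1. Gnaz, whose product Gαz is the Gi/o member insensitive to pertussis toxin, was higher in βTC6 by 0.79 ± 0.13 (adjusted p = 0.000508), from 8.83 ± 1.28 to 13.7 ± 1.87 FPKM.

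The Gq and G12 genes past the filter differed less than Gnai1. Gnaq and Gna11, the 2 broadly expressed Gq subunits, went in opposite directions: Gnaq was 0.67 ± 0.07 higher in βTC6 on the log2 scale (adjusted p = 2.6e-05, edgeR) and Gna11 fell by 0.46 (SE 0.08, adjusted p = 0.000462). In αTC1 Gna11 averaged 75.3 ± 1.03 FPKM to 20.0 ± 0.409 FPKM for Gnaq, and in βTC6 53.0 ± 2.83 to 30.5 ± 2.77 FPKM, so Gna11 led in all 6 libraries. Gna15, a Gq-family subunit of blood cells that couples to many receptors, was listed at 0 in the αTC1 replicates and at 0.97, 1.01 and 0.48 FPKM in the βTC6 replicates. Set against a floor of 3 counts per αTC1 library it was at least 6.57-fold higher in βTC6, at a level under the filter. Gna12, a subunit of the G12 family, was lower in βTC6 by a log2 fold change of -0.65 ± 0.07 (adjusted p = 2.75e-05), with 30.7 to 31.5 FPKM in αTC1 and 18.01 to 20.16 FPKM in βTC6. Gnat2, the cone transducin, held 1.45 to 3.34 FPKM in the 6 libraries, with overlapping ranges, and the rod and taste transducins Gnat1 and Gnat3 stayed at or under 0.1 FPKM.

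Of the 4 Gβ genes tested, 0 were called with edgeR, DESeq2 or limma, although Gnb2, Gnb4 and Gnb5 (3 of 4) passed both FDR and an unadjusted p of 0.05 in edgeR, all 3 higher in βTC6. Over all genes 10.2% were called for βTC6, 4.08% for αTC1, and 38.7% passed FDR for βTC6. Scaled to the spike-ins these 3 did not pass FDR (adjusted p = 0.313, 0.0917 and 0.66, edgeR), at log2 fold changes of 0.59, 1.07 and 0.31. Gnb1 and Gnb2, which encode the 2 widely used β subunits, made up nearly the whole class, and their order changed. Gnb1 measured 319 to 340 FPKM in αTC1 and 262 to 283 FPKM in βTC6, and Gnb2 218 to 236 FPKM in αTC1 and 324 to 341 FPKM in βTC6. Gnb1 held 58.5% ± 0.929 of the class in αTC1 and 44.3% ± 0.523 in βTC6 (SD, n = 3), and Gnb2 39.9% ± 0.888 and 53.8% ± 0.4. In the fit Gnb2 was 0.62 ± 0.08 higher in βTC6 on the log2 scale (adjusted p = 7.65e-05, edgeR), while Gnb1 differed by -0.10 ± 0.08 (adjusted p = 0.262) and passed FDR in limma on log2(FPKM + 1), at -0.27 (adjusted p = 0.0105). Gnb2 shares exon sequence with the same-strand gene Epo in the annotation. Gnb5, the β subunit that pairs with R7-type RGS proteins rather than with γ subunits, rose from 7.91 to 8.30 FPKM in αTC1 to 9.54 to 10.5 FPKM in βTC6 (log2 fold change 0.36 ± 0.10, adjusted p = 0.00976). Gnb4 was low in both lines, at 0.513 ± 0.267 and 1.69 ± 0.302 FPKM.

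The Gγ genes differed most in make-up. In αTC1 the leading γ genes were Gng5, Gng10, Gng4 and Gng3, with 45.3%, 22.2%, 14.5% and 13.9% of the summed FPKM. In βTC6 a single gene, Gng12, held 61.7% ± 5.59 (SD, n = 3), beside 0.976% ± 0.118 in αTC1. The class sum was 218 ± 10.0 FPKM in αTC1 and 517 ± 63.7 FPKM in βTC6. Without Gng12 it was 216 ± 9.66 and 196 ± 4.78 FPKM.

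Gng12, on chr6:66846391-66971344 on the plus strand, encodes a broadly expressed, prenylated γ subunit. It measured 1.75, 2.23 and 2.43 FPKM in αTC1 and 355, 364 and 245 FPKM in βTC6. The βTC6 replicates sat far above the αTC1 replicates, with a log2 fold change of 7.29 ± 0.22 (adjusted p = 1.31e-08, edgeR), the largest among the members tested. An annotated gene on the opposite strand, 4930597O21Rik, overlaps its exons. Over all 579 genes tested on chromosome 6 the median log2 fold change was -0.76.

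Gng3 and Gng2 changed in the opposite direction. Gng3, a γ subunit of neurons, measured 27.7, 27.3 and 35.8 FPKM in αTC1 and 1.24, 1.22 and 1.28 FPKM in βTC6. No βTC6 replicate came near the αTC1 range, and the log2 fold change was -4.54 ± 0.15 (adjusted p = 2.58e-08, edgeR). Gng3 lies on chr19:8911419-8913736 and shares exon sequence with Bscl2 on the opposite strand, so reads of the pair could not be told apart. Gng2 measured 2.72, 2.99 and 3.24 FPKM in αTC1 and 0.67, 0.43 and 0.86 FPKM in βTC6, a log2 fold change of -2.61 ± 0.36 (adjusted p = 0.000153). It lies on chr14:20691781-20796849, and chromosome 14 as a whole went the other way, with a median log2 fold change of 1.2 over its 415 tested genes and of 1.54 over its 2830 peaks. On log2(FPKM + 1) with limma the Gng2 difference shrank to -1.27 and was no longer called.

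The remaining γ genes were less affected. Gng4, a γ subunit of brain and endocrine tissue, was higher in βTC6, at 66.4, 71.7 and 68.2 FPKM beside 32.0, 35.1 and 27.7 FPKM in αTC1 (log2 fold change 1.17 ± 0.10, adjusted p = 5.52e-06, edgeR). Gng10 fell by 0.53 on the log2 scale (SE 0.08, adjusted p = 0.000313) from 48.3 ± 2.48 to 32.2 ± 1.71 FPKM, and it shares exons with the same-strand gene Gm20503. Gng5, the broadly expressed leading γ gene of αTC1, did not pass, at 91.8 to 108 FPKM in αTC1 and 84.5 to 93.9 FPKM in βTC6 (adjusted p = 0.274). The γ subunits of the retina, Gngt1 and Gngt2, and Gng8, Gng11 and Gng13 stayed under 0.5 FPKM in all 6 libraries.

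**Figure D2:**
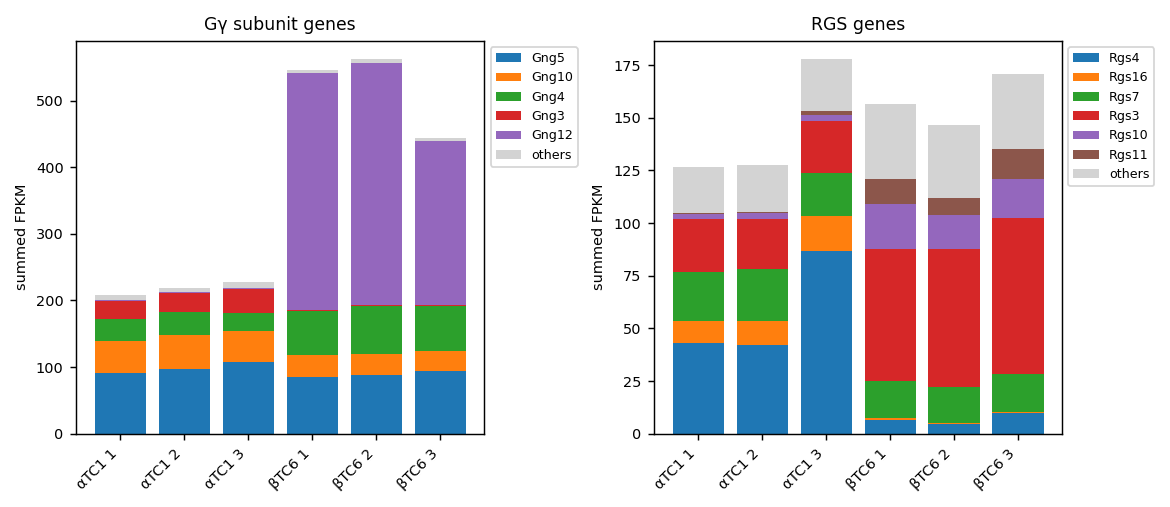
Stacked bars of summed FPKM per RNA-seq library for the 12 Gγ genes (left) and the 22 RGS genes (right), with the leading genes in color and the others in grey. In the βTC6 libraries Gng12 fills 245 to 364 FPKM of the Gγ bars, and in the RGS bars Rgs4 leads in αTC1 and Rgs3 in βTC6.

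The RGS genes exchanged members while their sum stayed level, at 144 ± 29.3 FPKM in αTC1 and 158 ± 12.03 FPKM in βTC6. By family, the R4 genes, small proteins with little beyond the RGS domain, summed to 105 ± 29.2 FPKM in αTC1 and 79.0 ± 8.47 FPKM in βTC6. The R12 genes summed to 8.28 ± 1.25 and 26.6 ± 3.35 FPKM, the RZ genes to 6.23 ± 0.192 and 15.0 ± 0.903 FPKM, and the R7 genes Rgs6, Rgs7 and Rgs11 to 23.6 ± 1.67 and 29.2 ± 3.35 FPKM. These sums are descriptions and were not tested.

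The 3 RGS genes called higher in αTC1 all belong to the R4 family and all lie on chromosome 1. Rgs4, which acts on Gi/o and Gq subunits, measured 43.1, 42.2 and 87.0 FPKM in αTC1 and 6.59, 4.50 and 9.74 FPKM in βTC6. The ranges did not overlap, αTC1 replicate 3 stood apart from the other two, and the log2 fold change was -3.004 ± 0.34 (adjusted p = 4.21e-05, edgeR). Rgs5, best known from pericytes, measured 3.55, 3.48 and 4.27 FPKM in αTC1 and 0.07, 0.06 and 0.06 FPKM in βTC6, a log2 fold change of -5.95 ± 0.23 (adjusted p = 5.3e-08). The start sites of Rgs4 and Rgs5 lie 92.1 kb apart. The 3 mesenchymal markers summed to 1.33 to 2.26 FPKM in αTC1 and 0.19 to 0.39 FPKM in βTC6, in the same direction as Rgs5. Of these, Col1a2 measured 1.26 to 2.12 FPKM in αTC1 and 0.08 to 0.23 FPKM in βTC6, Col1a1 overlapped between the lines at 0.07 to 0.21 and 0.11 to 0.16 FPKM, and Col3a1 was at 0 in all 6 libraries. The part of such cells in the Rgs5 difference was not tested.

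Rgs16, whose product also acts on Gi/o and Gq subunits, measured 10.5, 11.1 and 16.5 FPKM in αTC1 and 0.76, 0.36 and 0.54 FPKM in βTC6 (log2 fold change -4.47 ± 0.28, adjusted p = 8.78e-07, edgeR). All αTC1 libraries again lay above all βTC6 libraries. Rgs2, an R4 protein selective for Gq, was lower in βTC6 by less than the 4-fold limit (log2 fold change -0.62 ± 0.14, adjusted p = 0.00363). Chromosome 1 as a whole had a median log2 fold change of -0.67 over its 696 tested genes, and its part in these differences was not tested.

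Rgs3 took the place of Rgs4 as the leading RGS gene of βTC6. It encodes an R4 protein made in several forms, and it measured 25.3, 23.9 and 24.8 FPKM in αTC1 and 62.8, 65.2 and 74.0 FPKM in βTC6. The difference of 1.41 ± 0.09 on the log2 scale (adjusted p = 9.57e-07, edgeR) was clear of the replicate spread but under the limit for a call. Rgs3 held 17.6% ± 3.18 of the RGS class in αTC1 and 42.6% ± 2.24 in βTC6, and Rgs4 38.7% ± 8.88 and 4.33% ± 1.32.

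The 4 RGS genes called higher in βTC6 came from other families. Rgs11 is an R7 protein that works as a pair with Gβ5, and Rgs7bp encodes an anchor that tethers such pairs to the membrane. Rgs7bp measured 0.20, 0.29 and 0.17 FPKM in αTC1 and 7.84, 7.71 and 8.55 FPKM in βTC6 (log2 fold change 5.24 ± 0.17, adjusted p = 2.16e-08, edgeR). Rgs11 measured 0.39, 0.48 and 1.84 FPKM in αTC1 and 11.8, 8.15 and 14.1 FPKM in βTC6 (log2 fold change 3.66 ± 0.44, adjusted p = 5.82e-05). For both genes the lines did not overlap, although for Rgs11 αTC1 replicate 3 lay well above the other two. Rgs7, the most abundant of the R7 genes described here, went slightly the other way. It measured 20.1 to 24.8 FPKM in αTC1 and 17.5 to 18.3 FPKM in βTC6 (log2 fold change -0.36 ± 0.10, adjusted p = 0.0108, edgeR). It did not pass without αTC1 replicate 2 (-0.28, adjusted p = 0.062, edgeR).

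Rgs10, a small R12 protein that acts on Gi/o subunits, measured 2.42, 2.75 and 3.04 FPKM in αTC1 and 21.2, 16.3 and 18.5 FPKM in βTC6. Its log2 fold change was 2.84 ± 0.18 (adjusted p = 8.95e-07, edgeR). Rgs19, an RZ protein also known as GAIP that binds Gαi subunits, measured 1.06, 1.2 and 0.55 FPKM in αTC1 and 7.56, 6.69 and 8.23 FPKM in βTC6 (log2 fold change 3.06 ± 0.26, adjusted p = 6.81e-06). In both genes the lowest βTC6 library was above the highest αTC1 library. Rgs12, the other R12 gene past the filter, was 0.49 ± 0.11 higher on the log2 scale in βTC6 (adjusted p = 0.00312), and Rgs17 of the RZ family 0.70 ± 0.18 (adjusted p = 0.0063), with overlapping FPKM ranges for Rgs17. Of the 20 members below the filter, 16 stayed under 0.5 FPKM in every library, and 1, Rgs1, was at 0 in all 6.

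For the pathway around these genes, a list of 34 regulators, effectors and scaffolds was drawn up, of which 33 were in the tables and 27 were tested. At FDR alone 13 were higher in βTC6 (48.1%, beside 38.7% of all genes tested), 7 higher in αTC1 (25.9%, beside 36.0%) and 7 did not pass, with a median log2 fold change of 0.03. Called higher in βTC6 were 3 (11.1%, beside 10.2% of all genes) and called higher in αTC1 another 3 (11.1%, beside 4.08%). Among the potassium channel subunits opened by βγ pairs, the lines held different genes: Kcnj6 measured 0.05, 0.05 and 0.14 FPKM in αTC1 and 4.43, 2.83 and 4.52 FPKM in βTC6 (log2 fold change 5.73 ± 0.38, adjusted p = 1.25e-06, edgeR). Kcnj3 measured 2.08, 1.92 and 1.65 FPKM in αTC1 and 0.44, 0.12 and 0.18 FPKM in βTC6 (log2 fold change -2.99 ± 0.35, adjusted p = 5.28e-05). Kcnj9 measured 2.03, 2.38 and 2.98 FPKM in αTC1 and 0.01, 0 and 0 FPKM in βTC6, and Kcnj5 was at 0 throughout. The Kcnj9 values rest on 584 counts in αTC1 and 1 in βTC6, a ratio per library total of 626 with an exact 95% interval of 112 to 24800, which covers counting error only (adjusted p = 4.3e-07, edgeR).

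The orphan receptors Gpr158 and Gpr179, which bind R7 proteins and their Gβ5 partner, also differed in opposite directions. Gpr158 measured 0.16, 0.19 and 0.25 FPKM in αTC1 and 6.76, 5.47 and 5.19 FPKM in βTC6 (log2 fold change 4.90 ± 0.18, adjusted p = 4.2e-08, edgeR). Gpr179 measured 1.73, 1.38 and 4.26 FPKM in αTC1 and 0.99, 0.21 and 0.82 FPKM in βTC6 (log2 fold change -2.31 ± 0.55, adjusted p = 0.00424, edgeR). For Gpr179 αTC1 replicate 3 lay well above the other αTC1 libraries, and its call without that library was not examined. Of the genes described here that encode parts of R7 complexes, Rgs7bp, Rgs11 and Gpr158 were called for βTC6, Gpr179 for αTC1, and Rgs7 and Gnb5 for neither. Below the filter, the other anchor gene, Rgs9bp, measured 0.50, 0.66 and 1.49 FPKM in αTC1 and 0.17, 0.18 and 0.15 FPKM in βTC6, higher in αTC1 without overlap, and Rgs6 was at 0 to 0.04 FPKM. Axin2, a Wnt pathway scaffold with an RGS domain, was listed at 0 in αTC1 and at 2.76, 2.54 and 2.54 FPKM in βTC6, at least 81.5-fold higher against a floor of 3 counts per library. The receptor kinase gene Adrbk2 came close to the limit, at 4.69 to 5.96 FPKM in αTC1 and 15.9 to 22.04 FPKM in βTC6 (log2 fold change 1.91 ± 0.13, adjusted p = 1.66e-06).

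Open chromatin near these genes was measured as normalized read counts per consensus peak, which the authors had scaled by trimmed means, and tested with limma on log2(count + 1). A fold change on this scale is smaller than the plain ratio where counts are low. Of the 272 member peaks, 37 (13.6%) were called more open in βTC6, beside 12.9% of all 65053 peaks, and 19 (6.99%) more open in αTC1, beside 5.38% of all peaks. With quantile normalization in place of the authors' scaling the 2 counts became 27 and 29, beside 8.69% and 7.88% of all peaks. With edgeR on recovered reads they were 61 and 31, beside 21.2% and 8.82%. Replicates 1 to 3 alone gave 38 and 16 (12.5% and 4.82% of all peaks), and replicates 4 and 5, for which the authors computed mitochondrial reads differently, gave 48 and 22 (14.3% and 6.71%). At FDR alone 114 favored βTC6 and 94 αTC1, where the background was 39.9% and 38.1% of all peaks, and 64 did not pass. In the GENCODE annotation 246 of the 272 peaks had the same gene as nearest coding gene. Distal peaks, those 2000 bp or more from the start site, made up 53 of the 56 called. Among the 222 distal member peaks 15.8% were called for βTC6 and 8.11% for αTC1, beside 15.1% and 6.53% of all distal peaks.

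The peaks differed by the RNA call of their gene. The 30 peaks nearest to the genes called higher in βTC6 had a median log2 fold change of 1.79, and 13 of them (43.3%, beside 12.9% of all peaks) were called more open in βTC6 and 0 in αTC1. The 14 peaks nearest to genes called higher in αTC1 had a median of -1.90, with 3 (21.4%, beside 5.38% of all peaks) called in αTC1 and 0 in βTC6. In the opposite direction, limma's unadjusted p was under 0.05 for 3 of the 30 and 1 of the 14 peaks, and edgeR on recovered reads called 0 of either. For the 155 peaks of tested but uncalled genes the median was 0.01. Peaks of 1 gene are neighbors and not independent, 16 of the 30 belonged to Gnai1, and no test over peaks was made. The authors reported an association of line-specific peaks with differentially expressed genes across the genome. Shares over the peaks of all called genes were not computed, so the pattern is not shown to be particular to these members.

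Of the 34 tested genes, 32 had a peak within 2000 bp of the start site, and the peak nearest to the start was compared with the RNA. For the 10 called genes with such a peak, the peak had the direction of the RNA in all 10, and Rgs11 had no peak. For the 22 uncalled genes the signs matched in 10. Across the 32 genes Pearson's r between the log2 fold changes was 0.80 and Spearman's rho 0.71, and over the uncalled genes alone r was 0.22. These are correlations across genes, which share libraries and are not independent replicates. The same comparison over all genes was not made, so the match is not shown to be particular to these members. The authors reported a positive correlation of expression and accessibility changes across all genes with a peak, using each gene's most changed peak.

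**Figure D3:**
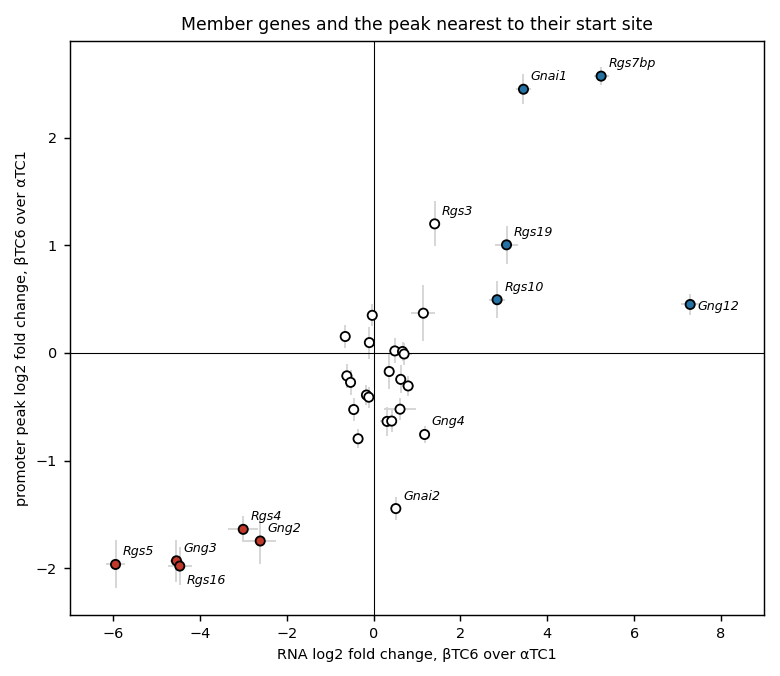
Log2 fold change of RNA (horizontal) against that of the peak nearest to the start site (vertical) for 32 member genes, βTC6 over αTC1, with standard errors as bars. Filled marks are genes called in RNA-seq; the 5 called for αTC1 lie at -1.64 to -1.98 on the vertical axis, and Gng12 lies at 0.45 despite an RNA value of 7.29.

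Start-site peaks of the αTC1-high genes were all more closed in βTC6, at log2 fold changes of -1.64 to -1.98. At Rgs4 the 5 αTC1 libraries held 64.4, 59.1, 71.2, 58.7 and 58.5 normalized reads and the 5 βTC6 libraries 15.8, 27.1, 16.8, 19.4 and 19.2 (log2 fold change -1.64 ± 0.12, adjusted p = 2.67e-10, limma). The start-site peaks of Rgs5, Rgs16, Gng3 and Gng2 had log2 fold changes of -1.96, -1.98, -1.93 and -1.75. None of these 5 peaks passed the limit of 2. With edgeR on recovered reads the last 4 did pass, at -2.12, -2.17, -2.31 and -2.05. Over all 5355 peaks on chromosome 1 the median was -0.61.

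For the βTC6-high genes the start-site peaks were less uniform. The peak at the Rgs7bp start held 18.6, 20.5, 20.4, 18.6 and 22.1 normalized reads in αTC1 and 128, 124, 122, 111 and 135 in βTC6 (log2 fold change 2.57 ± 0.09, adjusted p = 6.95e-15, limma), and it was the only peak assigned to that gene. At Gnai1 the start-site peak rose from 11.3 ± 2.73 to 65.6 ± 9.75 normalized reads (SD, n = 5; log2 fold change 2.45 ± 0.14, adjusted p = 5.51e-12). Rgs19 and Rgs10 had smaller differences, of 1.003 ± 0.18 and 0.49 ± 0.17, and for Rgs10 the 2 lines overlapped, at 5.9 to 8.4 and 8.1 to 13.5 normalized reads.

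Gng12 showed the widest gap between RNA and its start-site peak. That peak was open in both lines, with 28.4, 33.2, 30.2, 27.8 and 30.2 normalized reads in αTC1 and 43.7, 38.6, 45.9, 44.7 and 34.4 in βTC6 (log2 fold change 0.45 ± 0.10, adjusted p = 0.000375, limma). Inside the gene, 3 intronic peaks at 10.7, 13.9 and 32.1 kb past the start were called for βTC6, at log2 fold changes of 2.15, 2.204 and 2.46, the first of which fell to 1.97, below the limit, without αTC1 replicate 1. With a pseudocount of 5 the first and second were no longer called, at 1.17 and 1.59. The one at 32.1 kb held 8.5, 8.7, 8.7, 7.9 and 11.4 normalized reads in αTC1 and 53.1, 48.6, 48.5, 56.2 and 64.0 in βTC6. Of the 11 peaks assigned to Gng12, 8 favored βTC6 at FDR and 3 αTC1, where 39.9% and 38.1% of all peaks did so and the median over chromosome 6 was -0.79.

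The distal peaks of Rgs4 differed among themselves. Beyond the 3′ end of Rgs4, a peak 12.3 kb past the start held 24.8, 23.7, 30.5, 28.8 and 21.4 normalized reads in αTC1 and 0.6, 0.2, 1.1, 1.7 and 0.8 in βTC6, and was near closed in βTC6 (log2 fold change -3.88 ± 0.22, adjusted p = 6.17e-12, limma). Upstream of Gng2, a peak 9.8 kb before the start fell from 21.1 ± 2.16 to 2.71 ± 0.771 normalized reads (log2 fold change -2.59 ± 0.17, adjusted p = 6.94e-11; -1.76 and not called with a pseudocount of 5), on a chromosome where 35.5% of all peaks were called more open in βTC6 and 0.848% more open in αTC1. A further peak 71.2 kb upstream of Rgs4 was called at -2.01 ± 0.24, a call lost without any of 5 libraries: αTC1 replicates 4 (-1.95) and 5 (-1.87) and βTC6 replicates 2 (-1.96), 4 (-1.90) and 5 (-1.99), and also with a pseudocount of 5 (-1.03). Beside the start-site peak of Rgs4 at -1.64, its remaining peaks had log2 fold changes of -1.99 (43.2 kb past the start), -1.87 (1.6 kb past it), -1.10 (72.0 kb before it) and 0.25 (16.8 kb before it), the last with overlapping ranges and not past FDR.

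Peaks around Gnai1 formed a long open stretch in βTC6. The stretch was singled out after its values were seen. The 16 peaks assigned to Gnai1 and the 11 assigned to its neighbor Gnat3, the taste transducin gene, spanned 0.692 Mb of chromosome 5, and no other consensus peak lay in that span. Of the 27 peaks, 26 were more open in βTC6 at FDR, 12 were called (44.4%, beside 15.3% of all peaks on chromosome 5) and 0 went the other way, also at an unadjusted p of 0.05 and with edgeR on recovered reads, with a median log2 fold change of 1.94, where chromosome 5 as a whole had a median of 0.31. Of the called peaks assigned to Gnai1, 6 lost the call with a pseudocount of 5, at log2 fold changes of 0.98 to 1.82. The strongest, 166.5 kb past the Gnai1 start, averaged 1.08 ± 0.466 normalized reads in αTC1 against 20.5 ± 3.82 in βTC6 (log2 fold change 3.38 ± 0.21, adjusted p = 2.35e-11, limma). Gnat3 itself stayed at 0 to 0.1 FPKM, and a peak 208.3 kb from the Gnai1 start is assigned to Gnat3 because the Gnat3 start is nearer.

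**Figure D4:**
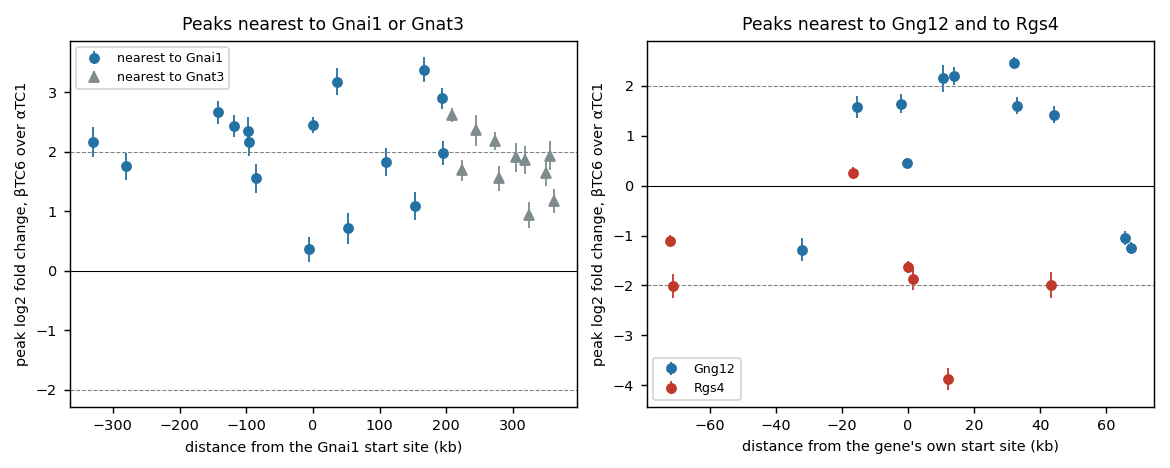
Log2 fold change of peaks, βTC6 over αTC1, with limma's standard error, against distance in kb: left, peaks nearest to Gnai1 (circles) or Gnat3 (triangles) placed by distance from the Gnai1 start, and right, peaks nearest to Gng12 and to Rgs4 by distance from their own start. Dashed lines mark 2 and -2. All 27 peaks on the left lie above 0, while Gng12 has peaks on both sides of it.

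For the distal peaks described above, the mm9 sequence is shown as the central 200 bases of each peak, with capitals for matches to 4 short motifs searched on both strands: CAGCTG (an E-box), TAATTA (a homeodomain core), TGTTTAC (a forkhead core) and TGANTCA (an AP-1 core). None of the windows holds an annotated exon.
Gng12 intron, chr6:66878873-66879072 (plus strand): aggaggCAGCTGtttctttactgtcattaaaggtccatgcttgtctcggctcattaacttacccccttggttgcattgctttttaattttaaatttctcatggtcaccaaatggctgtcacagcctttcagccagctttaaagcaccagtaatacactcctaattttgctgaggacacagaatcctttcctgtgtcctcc
Gnai1 downstream, chr5:17699619-17699818 (plus strand): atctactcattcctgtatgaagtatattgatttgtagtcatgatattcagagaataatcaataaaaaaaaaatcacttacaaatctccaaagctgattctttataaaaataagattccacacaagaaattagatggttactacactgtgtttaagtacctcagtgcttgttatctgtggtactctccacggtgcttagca
Gng2 upstream, chr14:20806150-20806349 (plus strand): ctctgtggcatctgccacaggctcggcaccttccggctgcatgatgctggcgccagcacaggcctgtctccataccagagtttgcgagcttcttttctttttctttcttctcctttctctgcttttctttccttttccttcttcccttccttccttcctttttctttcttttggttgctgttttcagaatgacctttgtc
Rgs4 downstream, chr1:171665412-171665611 (plus strand): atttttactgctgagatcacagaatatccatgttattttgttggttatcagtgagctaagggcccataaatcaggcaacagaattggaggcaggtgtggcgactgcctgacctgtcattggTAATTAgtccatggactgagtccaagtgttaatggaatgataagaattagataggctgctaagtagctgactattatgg
The Gng12 window holds 1 CAGCTG and the Rgs4 window 1 TAATTA, and the Gnai1 and Gng2 windows hold none of the 4. Over all consensus peaks the central 200 bases contain CAGCTG in 17.2%, TAATTA in 6.92%, TGTTTAC in 6.32% and TGANTCA in 10.6%, and over the member peaks the shares were 15.4%, 5.15%, 8.09% and 10.7%. CAGCTG was found in 6 of the 19 member peaks called for αTC1 (31.6%) and in 6 of the 37 called for βTC6 (16.2%), where 30.9% and 14.3% of all peaks so called hold it. In the same order TAATTA was in 2 and 3 (10.5% and 8.11%, beside 4.20% and 13.0% of all peaks so called). TGTTTAC was in 3 and 3 (15.8% and 8.11%, beside 8.54% and 7.91%), and TGANTCA in 1 and 5 (5.26% and 13.5%, beside 15.8% and 12.2%). These are matches of letters, not binding sites.

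Other member peaks went against the RNA of their gene or lay by silent genes. At Gng4, higher in βTC6 as RNA, the start-site peak was more closed there, at 134 and 78.8 normalized reads on average (log2 fold change -0.76 ± 0.08), and an intronic peak 36.4 kb past the start fell from 48.9 to 11.4 (log2 fold change -2.02 ± 0.12). Gnai2 likewise had RNA higher in βTC6 by 0.51 and a start-site peak at -1.45 ± 0.10 on the log2 scale. Some peaks of both genes went with the RNA. At FDR 2 of the 13 Gng4 peaks favored βTC6 and 8 αTC1. Of the 5 Gnai2 peaks 1 favored βTC6 and 4 αTC1, where 39.9% and 38.1% of all peaks did so. A peak 4.8 kb before the Gnas locus was called more open in αTC1 (11.9 and 2.22 normalized reads, log2 fold change -2.02 ± 0.22), while Gnas RNA did not differ beyond its replicate spread. Of the 73 member peaks assigned to genes below the expression filter, 10 (13.7%) were called more open in βTC6 and 9 (12.3%) in αTC1, beside 12.9% and 5.38% of all peaks.

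The largest group of such peaks lay in the cluster of R4 genes on chromosome 1 that holds Rgs2, Rgs13, Rgs1, Rgs21 and Rgs18. Across 1.654 Mb, 41 peaks were assigned to Rgs2, Rgs13, Rgs1 or Rgs18, and 28 were more open in βTC6 at FDR (68.3%, beside 39.9% of all peaks), 9 of them called, while 5 were more open in αTC1 (12.2%, beside 38.1%) and 0 called. The 9 called are 21.95% of the 41, beside 12.9% of all peaks and 7.56% of those on chromosome 1. Of the 41, 6 were more open in αTC1 at an unadjusted p of 0.05, and edgeR on recovered reads called 0 but quantile normalization 1. Their median log2 fold change was 1.15, where all peaks on chromosome 1 had -0.61. A peak 30.7 kb past the start of Rgs1 rose from 3.12 to 47.9 normalized reads (log2 fold change 3.601 ± 0.17), and a peak 61.0 kb past that of Rgs13 from 3.33 to 48.5 (3.53 ± 0.16). Yet Rgs1 was at 0 FPKM, Rgs13 at 0 to 0.09 FPKM and Rgs18 at 0 to 0.02 FPKM, and the one expressed gene of the cluster, Rgs2, was lower in βTC6. This cluster too was picked after its values were seen.

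Rgs8, a further R4 gene under the filter, lies beside Rgs16 with start sites 87.3 kb apart. It had 8 peaks, of which 4 were called more open in αTC1 and 0 in βTC6, beside 5.38% and 12.9% of all peaks and 8.48% and 7.56% of those on chromosome 1, which also holds Rgs7. Another 2 were more open in βTC6 at FDR and at an unadjusted p of 0.05, with log2 fold changes of 1.03 and 1.13 (adjusted p = 0.000227 and 0.000215, limma), and edgeR on recovered reads called 0 for βTC6. Its own RNA was at 0.04 to 0.18 FPKM in αTC1 and 0.56 to 0.64 FPKM in βTC6, in the opposite direction, whereas Rgs16 was higher in αTC1. The Rgs8 peak with the largest moderated t lay 11.2 kb before its start and 98.5 kb from the Rgs16 start, and held 41.4 to 57.6 normalized reads in the αTC1 libraries and 5.7 to 7.8 in the βTC6 libraries. Rgs7, nearly level in RNA, had 4 peaks called for βTC6 and 2 for αTC1 among its 16. The one 252.6 kb past the start averaged 149 ± 18.9 normalized reads in αTC1 against 34.6 ± 4.38 in βTC6 (log2 fold change -2.07 ± 0.10, adjusted p = 9.26e-13, limma), a call lost with quantile normalization (-1.65), a pseudocount of 5 (-1.96) and replicates 1 to 3 alone (-1.99).

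The mixtures show how far such peaks track the share of each line. For each direction the 3 called member peaks with the largest moderated t were followed, and their windows of 200 bases are shown for the peaks of Rgs8, Rgs7, Rgs13 and Gnat3, and for Rgs7bp the 200 bases before its start, read on its own strand.
Rgs8 upstream, chr1:155488849-155489048 (plus strand): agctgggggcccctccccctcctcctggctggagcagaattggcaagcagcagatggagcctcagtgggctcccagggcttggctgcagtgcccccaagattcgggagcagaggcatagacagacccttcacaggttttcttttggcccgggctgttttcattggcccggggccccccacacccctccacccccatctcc
Rgs7 intron, chr1:177169938-177170137 (plus strand): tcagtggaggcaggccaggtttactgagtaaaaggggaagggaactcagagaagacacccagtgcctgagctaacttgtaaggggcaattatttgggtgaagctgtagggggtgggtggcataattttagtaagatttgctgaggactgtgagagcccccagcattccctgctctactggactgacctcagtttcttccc
Rgs13 downstream, chr1:145963399-145963598 (plus strand): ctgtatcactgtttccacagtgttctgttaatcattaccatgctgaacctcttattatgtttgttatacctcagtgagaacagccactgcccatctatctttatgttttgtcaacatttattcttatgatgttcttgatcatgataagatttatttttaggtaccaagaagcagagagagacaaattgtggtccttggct
Gnat3 downstream, chr5:17657793-17657992 (plus strand): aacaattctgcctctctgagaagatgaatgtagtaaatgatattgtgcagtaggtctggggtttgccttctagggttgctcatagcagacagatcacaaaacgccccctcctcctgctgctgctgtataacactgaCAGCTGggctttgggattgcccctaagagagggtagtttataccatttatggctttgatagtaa
Rgs7bp upstream, chr13:105845011-105845210 (minus strand): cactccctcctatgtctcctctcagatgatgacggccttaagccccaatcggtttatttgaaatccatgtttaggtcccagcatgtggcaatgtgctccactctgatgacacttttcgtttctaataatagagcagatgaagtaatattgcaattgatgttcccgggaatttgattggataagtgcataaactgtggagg
Among these windows CAGCTG occurs once, in that of Gnat3, and the other 3 motifs do not occur. The G+C share ranged from 36.0% in the Rgs13 window to 64.5% in the Rgs8 window.

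Normalized reads at the Rgs7bp start fell with every step in αTC1 share, from 119 in the mixture with 10% αTC1 cells to 60.1 at 50% and 27.4 at 90%. Pearson's r with the αTC1 percentage was -0.98 and Spearman's rho -1 over 9 mixtures (2-sided exact permutation p = 5.51e-06 for both, the smallest that 9 mixtures allow, and 1.1e-05 after adjustment over 12 relations). Without the mixtures at 10% and 90% r was -0.98. Of the 9 values 2 lay above the mean of the pure lines weighted by their shares and the others below it, as at 40% αTC1 (68.1 against 82.4).

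The peaks of Rgs8 and Rgs7 rose with every step, from 11.2 to 45.1 and from 59.4 to 168 normalized reads between 10% and 90% αTC1. Their r was 0.98 and 0.99 and their rho 1 (exact permutation p = 5.51e-06, adjusted 1.1e-05), and r was 0.98 and 0.99 without the outer mixtures. All 9 values of both peaks lay above the weighted mean of the pure lines. The peaks of Rgs13 and Gnat3 had r of -0.97 and -0.97 (exact permutation p = 2.2e-05 and 3.31e-05, adjusted 3.78e-05 and 4.96e-05). Their rho was -0.98 and -0.93 (exact permutation p = 4.96e-05 and 0.00075, adjusted 6.61e-05 and 0.000899), and r without the outer mixtures was -0.97 and -0.95. The Gna14 peak, in an intron of a Gq-family gene that was itself at or under 0.08 FPKM, was looser, with r of 0.88 (exact permutation p = 0.00303, adjusted 0.0033), rho of 0.83 (exact permutation p = 0.00827) and r of 0.81 without the outer mixtures. Over all called member peaks the median r was -0.92 for the 37 more open in βTC6 and 0.93 for the 19 more open in αTC1, which is a description, since the peaks share the 9 libraries.

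**Figure D5:**
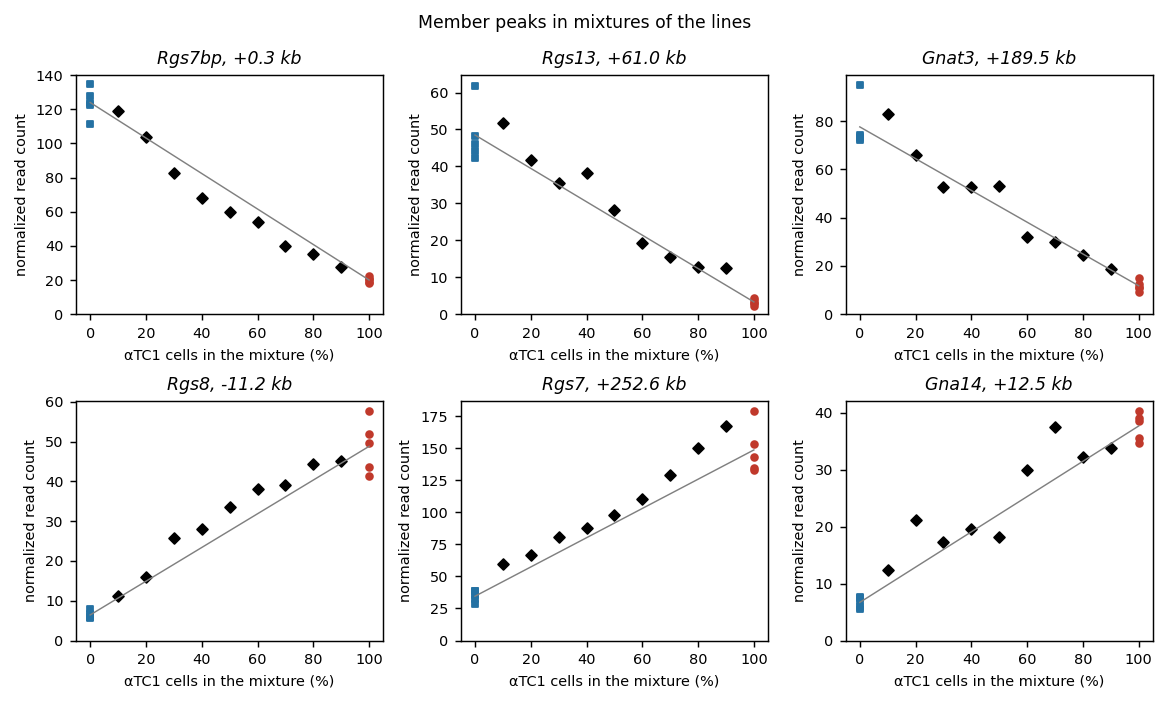
Normalized read count of 6 member peaks against the percentage of αTC1 cells: diamonds are the 9 mixtures, squares at 0% the 5 βTC6 libraries, circles at 100% the 5 αTC1 libraries, and the line joins the means of the pure lines. The Rgs7bp peak falls from 119 to 27.4 over the mixtures and the Rgs7 peak rises from 59.4 to 168.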

How the data were processed

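Open chromatin was measured in 10 pure and 9 mixed ATAC-seq libraries and expression in 6 RNA-seq libraries. The deposited ATAC-seq signal values are read counts per consensus peak that the authors obtained with Trimmomatic, BWA (mm9), Picard, MACS2 and DiffBind and scaled by trimmed means of M-values (TMM), and the authors annotated peaks with HOMER. Peaks were called per library and merged into a consensus. All values (100%) were whole multiples, within 0.01, of the lowest value of their library, which was taken as 1 read to recover whole reads. Thus 1 read and no reads could not be told apart. The deposited expected counts and FPKM values come from RSEM, which the authors ran after Trim Galore and Bowtie2 at default settings that do not use strand. The files also hold the authors' calls of which line each peak favors and its class, and these were not used. Each sample column belonged to 1 library by its label, and 0 columns were left unmatched.

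Genes were tested with edgeR 4.0.16 (quasi-likelihood F test, TMM, expected counts rounded to whole numbers) where FPKM reached 1 in all replicates of either line, and peaks with limma 3.58.1 (trend) on log2(normalized read count + 1). A call needed both an FDR under 5% and a log2 fold change above 2 in size. P-values were adjusted over all features tested. SE is the log2 fold change divided by the test's t or root F. Both fits were tested on simulated data made with known changes. Alternatives were DESeq2 1.42.0, other scalings, filters and pseudocounts, a replicate block, processing groups and leaving out each library. Genes and the pathway list were chosen with earlier results of these data known. Named in full were called genes, the leading and up to 3 most abundant uncalled genes of each class, the start-site and called peaks of called genes, and 6 peaks for the mixtures. A few others (Gnai3, Gnal, Gnaz, Gnaq, Gna11, Gna12, Gna15, Gnat2, Gnb4, Rgs2, Rgs8, Rgs17 and other members below the filter, with peaks of uncalled or silent genes) were added after their values were seen. The lowest library total, 4397851 reads in peaks, came from βTC6 replicate 2. Floors of 3 counts cover counting error only. Positions and sequences are from mm9 (NCBIM37), to which peak and GENCODE gene coordinates belong.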

Additional observations from a re-analysis of the deposited data

Results flagged for a closer look

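For 29 named member peaks, the 5 libraries of each line were examined for a library whose gap to its nearest neighbor was above Dixon's 95% critical value of 0.71 of the whole range. Over the 58 groups 3 stood out, where chance gives about 1 in 20. At the Gnat3 peak 189.5 kb past the start, βTC6 replicate 5 held 95.0 normalized reads beside 72.2 to 74.3 in the others. At the Gng12 intronic peak 32.1 kb past the start, αTC1 replicate 5 held 11.4 beside 7.92 to 8.72. At the Rgs16 start-site peak, βTC6 replicate 2, the library of lowest depth, held 2.26 beside 4.32 to 4.86.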

How the results depend on the processing

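The RNA counts of 6 members called for βTC6 and 5 for αTC1 were the same with DESeq2, its size factors in edgeR, scaling to the ERCC spike-ins, a replicate block and leaving out any 1 library (6 to 6 and 5 to 5). At FDR alone they were 17 and 10, and of these 8 and 5 passed when libraries were scaled to the spike-ins. Without the expression filter 9 and 7 of 53 members were called (17.0% and 13.2%, beside 12.8% and 5.21% of all genes), the additions being Gna15, Rgs8 and Gnat1 for βTC6 and Rgs9bp (-2.42, adjusted p = 0.000129, edgeR) and Gng11 (adjusted p = 0.038, listed at 0 in βTC6) for αTC1. Of 322 alternative values for the 23 named genes 1 lost its call, Gng2 on log2(FPKM + 1). Gnas, which did not pass, moved between -0.0794 and 0.0256 when 1 library was left out, turning positive without replicate 3 of either line, and was 0.0306 with limma on log2(FPKM + 1) and on log2(FPKM + 0.1), and no other named gene changed sign. Gnao1 passed FDR with DESeq2 (adjusted p = 0.0251), filterByExpr (0.0492), no filter (0.0367) and limma with either pseudocount (0.00228 and 0.00221), and did not in the other 9 alternatives.

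The peak counts, 37 for βTC6 and 19 for αTC1, became 8 and 5 with a pseudocount of 5 (2.56% and 1.26% of all peaks), 61 and 31 with edgeR on recovered reads (21.2% and 8.82%), and 114 and 94 at FDR alone. With quantile normalization they were 27 and 29, the second beyond 1.5 times the main count, where all peaks moved to 8.69% and 7.88%. Leaving out 1 library gave 33 to 40 and 17 to 21. Of 551 alternative values for the 29 named peaks, 26 lost a call, 12 of them with a pseudocount of 5, 26 gained one and 0 changed sign. The called Gnai1 peak 330.1 kb before the start fell to 1.99 without βTC6 replicate 5. The cause of these shifts was not tested.

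Deviations of same-numbered replicates had small correlations (-0.047 to 0.025 in RNA-seq and -0.002 to 0.069 in ATAC-seq). Other-numbered pairs had -0.054 to 0.06 and -0.06 to 0.027, so the highest ATAC-seq value came from a same-numbered pair, replicates 5. Such values cannot show whether same-numbered libraries were handled together. With the replicate block the counts were 6 and 5 genes and 37 and 19 peaks. In the mixtures, log2 values gave r of -0.996, -0.98, -0.97, 0.93, 0.998 and 0.88, all on the same side. Shares of a class are the same in TPM by construction. Lower depth limits peaks of few reads: 3 reads correspond to 0.282 to 0.615 normalized reads across the pure libraries.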
